A study of Mus musculus with 8 samples.

Results

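The ribosome of the cytoplasm carries one set of proteins in its large subunit and another in its small subunit, and each of these proteins is encoded by its own gene. The 84 protein-coding genes for them were chosen from the 54532 genes of the table by their symbols, those beginning with Rpl or Rps and a number together with Rplp0 to Rplp2 and Rpsa, leaving out kinases, pseudogenes and ribosomal protein-like names that are not ribosome components. Of these, 51 belong to the large subunit and 33 to the small subunit, and 83 had enough counts to be tested. No reads were counted on Rpl10l, a testis-expressed copy of Rpl10, in any library. Fau, whose product is cut to give a ribosomal protein, and Rack1, a scaffold on the small subunit, fall outside the symbols and are described separately.

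Ribosomal protein genes are transcribed strongly in every growing or secreting cell, since each new ribosome needs a copy of nearly all of these proteins. Their mRNAs typically begin with a C followed by an unbroken run of pyrimidines, the terminal oligopyrimidine (TOP) tract, through which the growth regulator mTOR and the binding protein Larp1 set how well they are translated. Ameloblasts first secrete large amounts of a few matrix proteins and later resorb the matrix and transport ions while the enamel hardens. A few ribosomal proteins also have a paralog, a related gene used in particular tissues or conditions.

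The libraries came from first molar enamel organs of wild-type C57BL/6 pups at postnatal day 5 (P5) and day 12 (P12), with no treatment and with polyadenylated RNA captured. Pups were pooled for each library, and each age had 4 libraries, numbered 1, 3, 4 and 5 at P5 and 1 to 4 at P12 in the labels. The reads counted on genes ran from 16574548 to 20262601 per P5 library and from 17588152 to 22013456 per P12 library. The labels call the cells epithelially derived, and the 4 secretory ameloblast markers took 23.2 to 25.5% of the counts at P5 and 1.47 to 3.52% at P12, while the 5 maturation markers took 0.0601 to 0.203% and 2.21 to 2.74%. Mesenchyme markers were present as well, with 4.04 to 4.96% and 4.16 to 6.08% of the counts for 5 genes led by collagens. Oral epithelium markers rose from at most 0.0073% to between 0.0693 and 0.362%. All 4 tested leukocyte and all 3 endothelial markers were higher at P12 too, with 0.0031 to 0.0044% of the counts at P5 against 0.0061 to 0.0093% for the former and 0.0089 to 0.0108% against 0.0226 to 0.0238% for the latter. The part of these cells in the results below was not tested. In whole tissue, fewer cells of a type and less RNA per cell cannot be told apart.

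RefSeq promoter windows on GRCm38.p6 were found for 64 of the 84 genes, and they show the start sites that these genes share. A TOP-like tract, meaning at least 7 unbroken C or T bases opening with C within 10 bases of an annotated start, was present in 30 of the 64 genes (46.9%) and in 14.8% of the other tested genes with a window. The letters CCGGAAG, searched on both strands of the 300-base window, were found in 40.6% against 17.8%, and AAGATGG in 14.1% against 7.83%. For GGGCGG the shares were 60.9% and 66.4%. TATAAA on the sense strand, beginning 40 to 20 bases before the start, was found in 1.56% and 1.70%, so that 1 ribosomal protein gene had it. A match describes letters only, and an annotated start a few bases away from the one used in this tissue moves the window.

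The following 30-base windows, 15 bases on each side of an annotated start and printed 5′ to 3′ on the gene's strand, belong to the paralog pairs and single genes that the results below turn on. Capitals mark the part of a TOP-like tract that lies in the window, and where a gene has several annotated starts the one shown is the first along its strand, except for Rpl22, where the second is shown.
Rps27: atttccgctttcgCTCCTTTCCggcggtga (chr3:90213634-90213663, minus strand)
Rps27rt: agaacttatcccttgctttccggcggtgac (chr9:114982725-114982754, minus strand)
Rps27l: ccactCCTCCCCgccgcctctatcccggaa (chr9:66946071-66946100, plus strand)
Rpl22: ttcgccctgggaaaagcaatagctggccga (chr4:152325711-152325740, plus strand)
Rpl22l1: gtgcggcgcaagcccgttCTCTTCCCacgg (chr3:28805493-28805522, plus strand)
Rps10: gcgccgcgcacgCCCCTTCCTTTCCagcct (chr17:27635230-27635259, minus strand)
Rpl38: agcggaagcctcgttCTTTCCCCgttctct (chr11:114668565-114668594, plus strand)
Rps6: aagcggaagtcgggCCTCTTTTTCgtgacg (chr4:86857353-86857382, minus strand)
Rpsa: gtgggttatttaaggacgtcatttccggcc (chr9:120127751-120127780, plus strand)
The tract of Rps27 runs across its start, that of Rpl22l1 lies after its start, and Rpsa has none here. That of Rps27l lies wholly before the annotated start shown, outside a transcript that begins there. The second annotated start of Rps27l has no tract, but the gene is counted below among those with one. Rps27rt, a copy of Rps27 that arose by retrotransposition, shares a stretch of 14 bases with it in these windows. In edgeR's comparison of the ages on TMM-normalized counts, described below, 11 of 30 tested genes with a tract were lower at P12 and 2 higher, beside 28.4% and 28.8% of all genes, and by total count 1 was lower and 15 higher, beside 14.2% and 54.0%. Among the genes whose windows lacked one, 16 of 33 were lower and none higher on the TMM scale, and by total count none was lower and 9 were higher. A difference between these groups was not tested.

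Together the 84 genes took 2.97, 2.80, 2.82 and 2.69% of all counts at P5, in the order of libraries 1, 3, 4 and 5 kept throughout, and 3.35, 3.50, 3.15 and 2.64% in the P12 libraries, ordered from 1 to 4. The mean was 2.82% ± 0.115 at the earlier age and 3.16% ± 0.374 at the later one (SD, n = 4 each). The other 3 P12 libraries were above every P5 library and P12 library 4 was below them all. The 20 most abundant genes took 33.5 to 35.2% of the counts at P5 and 16.0 to 18.5% at P12, and with those genes left out of the total the order of the ages turned, to 4.31% ± 0.209 at P5 and 3.80% ± 0.401 at P12 (SD, n = 4). The ratio of large to small subunit counts was 1.48 to 1.50 in the P5 libraries and 1.48 to 1.51 in the P12 libraries. A direction for the whole set of genes therefore depends on what the counts are divided by, and each is given below with its scale.

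**Figure D1:**
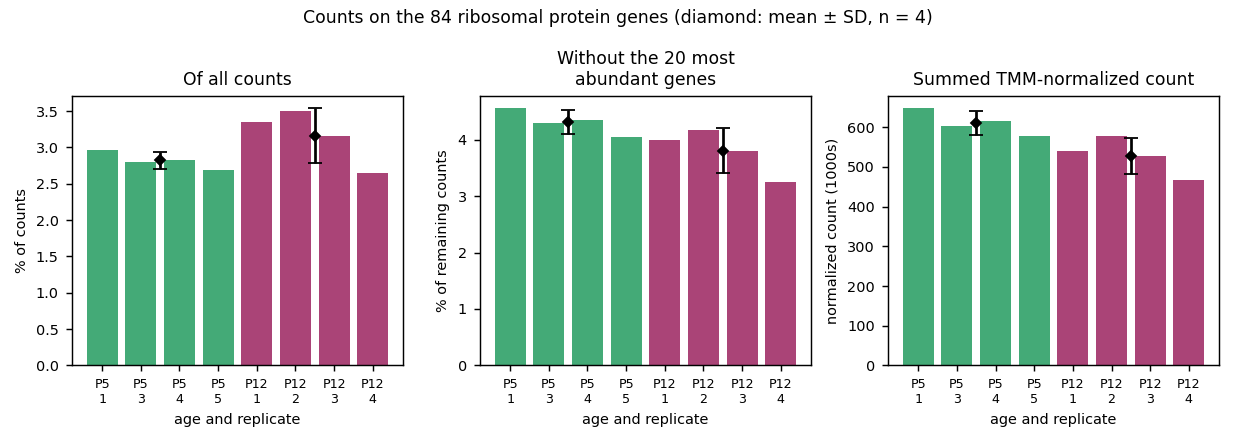
Bars give, for each library, the percent of all counts on the 84 ribosomal protein genes (left), the percent after leaving out the 20 most abundant genes (middle) and the summed TMM-normalized count in units of 1000 (right), with diamonds for mean ± SD over 4 libraries. The mean is higher at P12 on the left (3.16 against 2.82%) and lower in the middle (3.80 against 4.31%), and P12 library 4 is the lowest bar in all 3 panels.

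Levels between genes were compared as normalized counts per kilobase of the gene length in the table. Rplp1, an acidic protein of the stalk that recruits elongation factors, was highest, at 30769 ± 854 per kilobase at P5 against 24971 ± 628 at P12 (SD, n = 4). Rplp0, the base of the same stalk, followed at 18667 ± 890 and 15415 ± 1671. Rps3a1, Rps15 and Rpl17 came next in the mean of all libraries, at 11260, 10960 and 10755, and lay so close that their spreads overlapped. Dividing by the length of the principal transcript instead kept Rplp1 first but changed the ranks behind it, with Rpl41, the shortest ribosomal protein, moving from 7 to 2, Rplp0 from 2 to 4, Rps3a1 from 3 to 18, Rps15 from 4 to 8 and Rpl17 from 5 to 21. Rps12, named after its values were seen, moved from 23 to 3, so that the order below Rplp1 depends on the length used.

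At the other end, 7 of the 83 tested genes had a mean normalized count under 500, from 17.7 to 371, whereas the other 76 lay between 964 and 28271. Rpl3l, the paralog of Rpl3 known from striated muscle, was lowest per kilobase at 15.3 ± 7.7 at P5 against 6.2 ± 1.9 at P12 (SD, n = 4). Rpl36al, Rpl24, Rpl39l and Rps10 followed, with means over all libraries of 13.1, 23.7, 27.4 and 27.7 per kilobase. Rpl39l is a testis-enriched paralog, but Rpl24 and Rps10 are core proteins that every ribosome carries. Rpl24 and Rps10 were counted only 16 to 30 and 34 to 116 times per library, and 47.0% and 20.6% of their exonic bases are shared, on the same strand, with an annotated read-through gene on which no read was counted in any library. For Rpl13a (286 to 458 counts) that share was 29.4% and for Rpl36al (8 to 30 counts) 24.5%, again beside a read-through gene without counts. Whether the counting of shared bases set these low counts was not tested, and the levels of these 4 genes are uncertain.

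The question the ages pose is which ribosomal protein genes differ between the secretory and the maturation stage. With edgeR's quasi-likelihood test on TMM-normalized counts, 37 of 83 genes were lower at P12 and 2 were higher, against 28.4% lower and 28.8% higher among all 16440 genes tested, while scaling the same fit by total count gave 33 higher and 1 lower, against 54.0% higher and 14.2% lower of all genes. The median log2 fold change of the 83 genes was -0.18 on the TMM scale (0.88-fold) beside 0.01 for all genes, and 0.19 beside 0.38 when scaled by total count. Measured from the median of all genes the difference was -0.19 on both scales, and 77 of 83 genes lay below that median on either. Changing the scale shifts all genes by nearly the same amount, so that this agreement between scales was fixed in advance. Over the 20 alternative fits the distance from the median of all genes ranged from -0.27 to -0.14. Changes were small and alike, with an SD of 0.23 among the 83 genes beside 1.17 among all genes. Such a spread over the 83 was not particular to them. The SD was 0.23 among mitochondrial ribosomal protein genes, 0.26 among initiation factors and 0.31 among ribosome biogenesis genes, the lists described below. Among the 76 ribosomal protein genes with a mean of at least 500 the SD was 0.16, a limit not applied to those lists. TMM-normalized counts of the ages did not overlap in 34 of 83 genes, 33 of them lower at P12 (26.6% of all genes) and 1 higher (26.0% of all genes).

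On the TMM scale 24 of 50 large subunit genes were lower and none was higher, with a median of -0.21, and 13 of 33 small subunit genes were lower and 2 were higher, with a median of -0.18, whereas by total count the medians were 0.17 and 0.20. P12 library 4 was the lowest of its age for 79 of the 83 genes, beside 34.4% of all genes, and P5 library 1 was the highest of its age for 63, beside 26.4%. Without P12 library 4, 33 genes were lower and 3 higher, beside 5092 and 4938 of all genes. With all libraries 4676 of all genes were lower and 4735 higher. The distance from the median of all genes was smallest without P12 library 4, at -0.14, with 71 of 83 genes below that median. Without both it and P5 library 5, the library lowest at P5 for 58 genes, 39 were lower and 3 higher. Of all genes 4855 were lower and 4921 higher in that fit. P12 library 4 also had the highest share of secretory ameloblast markers among the P12 libraries (3.52%) and the lowest share of oral epithelium markers (0.0693%). The part of these cells in its low ribosomal protein counts was not tested. Without P5 library 1 the number of large subunit genes called lower was 15, and it was also 15 without P12 library 3. In those fits 4478 and 4413 of all genes were lower.

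**Figure D2:**
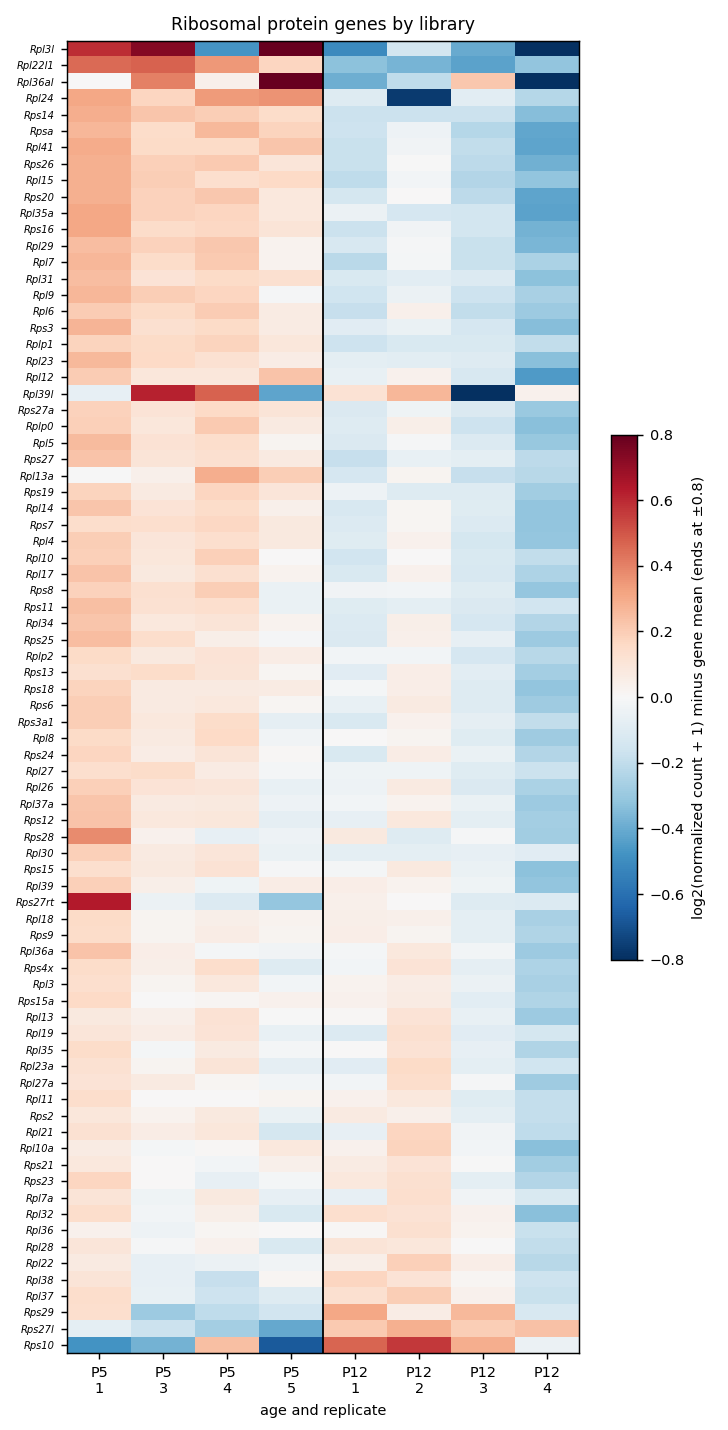
Each row is one of 80 of the 83 tested ribosomal protein genes, ordered by its log2 fold change, and each column a library. Colour gives log2(TMM-normalized count + 1) minus the gene's mean over the 8 libraries, ending at ±0.8. Most rows shade from red at P5 to blue at P12 on this scale (by total count the median turns to 0.19), P12 library 4 is the bluest P12 column, and Rps27l and Rps10 at the bottom run the other way.

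Among genes with a mean of at least 100, those with the largest falls by the fixed rule included Rpl22l1, Rps14, Rpsa, Rpl41 and Rps26. Rps14, a small subunit protein near the mRNA, had 11807, 11290, 11074 and 10701 normalized counts at P5 and 8584, 8575, 8571 and 7645 at P12. Every P12 library was below every P5 library, and the log2 fold change was -0.43 ± 0.07 (SE, edgeR adjusted p = 0.000304). Rpsa, which sits on the small subunit and is also known as the laminin receptor, had 18877, 17379, 18741 and 17705 at P5 and 14007, 15219, 13395 and 11762 at P12. Its groups did not overlap either, with a log2 fold change of -0.42 ± 0.09 (SE, edgeR adjusted p = 0.00179). Rpl41 and Rps26 fell by 0.41 and 0.39 on the log2 scale. Scaled by total count, none of these genes other than Rpl22l1 was called, and the log2 fold change of Rps14 was -0.05 and that of Rpsa -0.04.

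To compare the genes with one another, the fit was repeated with library size set to the summed count of all 84, so that the scaling of the whole library drops out. On that scale 7 of 83 genes were higher at P12 (38.8% of all genes) and 2 were lower (16.5% of all genes), and the other 74 did not differ from the pool beyond the test's threshold. The pool is made of these same genes, which holds their median near 0 (0.028). That most of them were not called is therefore largely given by the scale. The 7 were Rps10, Rps27l, Rps29, Rpl37, Rpl38, Rpl22 and Rpl28, at 0.84, 0.68, 0.47, 0.30, 0.28, 0.25 and 0.21 on the log2 scale. Rps29, a small zinc-binding protein of the small subunit, had 3177, 2363, 2515 and 2600 TMM-normalized counts at P5 and 3591, 3017, 3468 and 2652 at P12. Its groups overlapped on the TMM scale, where the call was missed (0.26 ± 0.11 SE, edgeR adjusted p = 0.0716), and against the pool it was higher (0.47 ± 0.11 SE, edgeR adjusted p = 0.00316). Rpl38, whose loss in mice alters the axial skeleton, had 2457, 2183, 2010 and 2310 at P5 and 2576, 2471, 2315 and 2040 at P12. Against the pool its log2 fold change was 0.28 ± 0.09 (SE, edgeR adjusted p = 0.0235), while on the TMM scale it was 0.07 and not called. The lower ones were Rpl22l1 (-0.51) and Rpl3l (-1.11), both paralogs. Rps27l and Rpl22l1 alone were called in the same direction in the fit as designed and in all 20 alternative fits, the total-count and pool scales included.

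**Figure D3:**
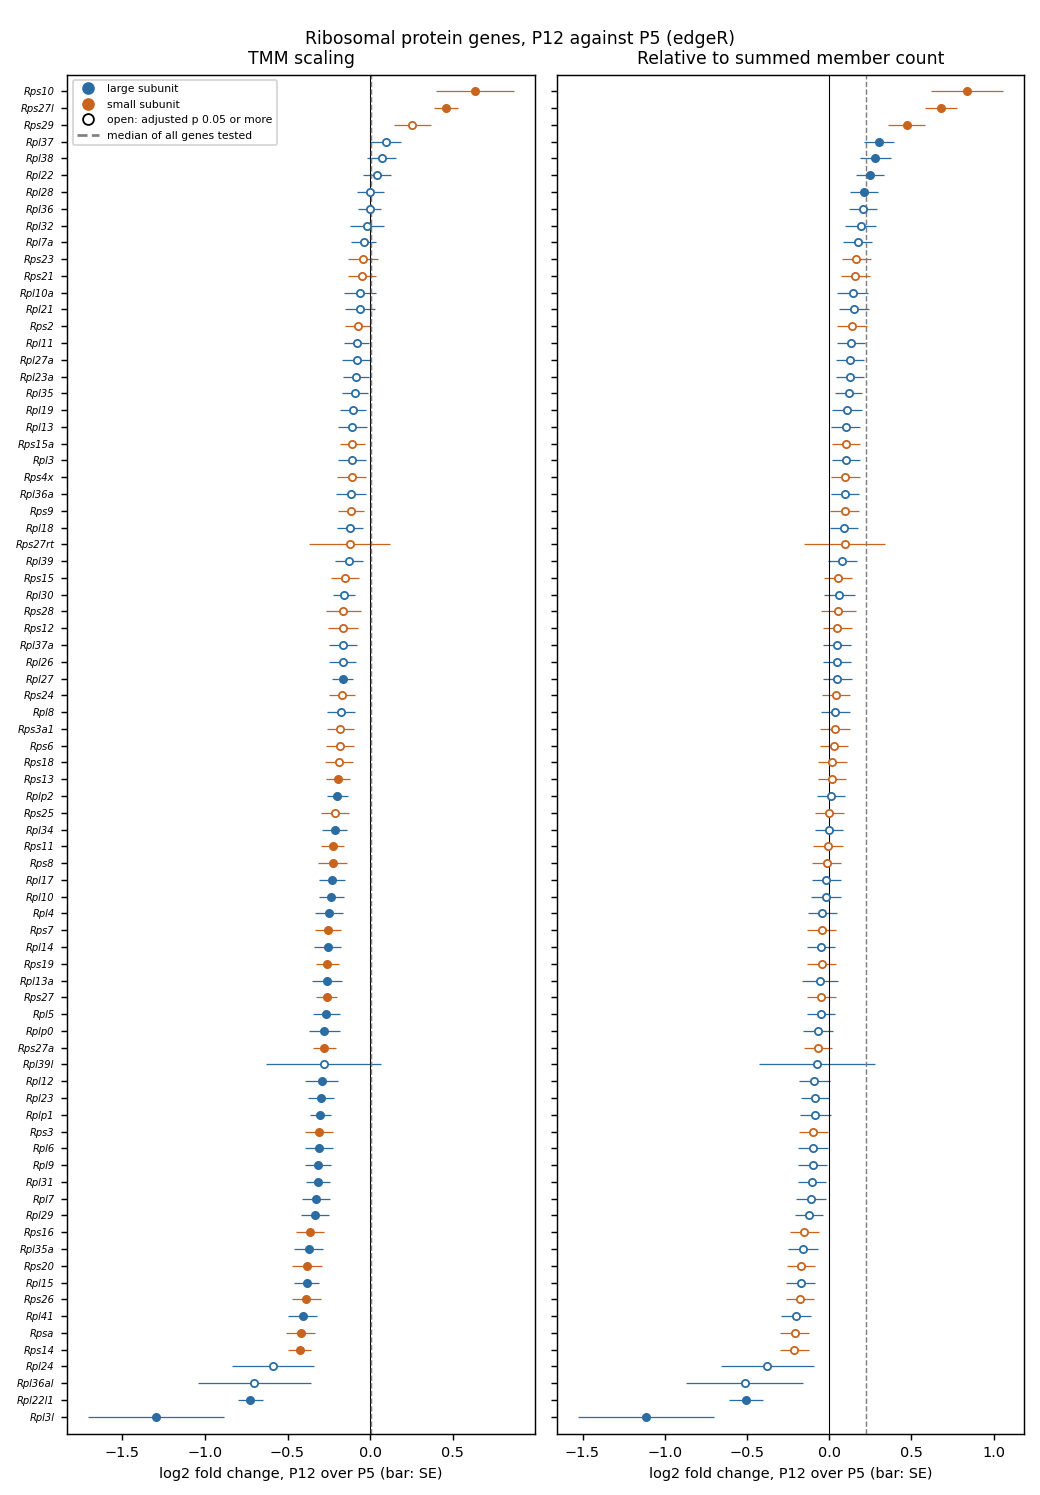
Points give the log2 fold change, P12 over P5, of 80 of the 83 tested genes, with SE bars from edgeR, on the TMM scale (left) and relative to the summed ribosomal protein count (right), blue for the large and orange for the small subunit. Filled points passed the threshold of 0.05, 38 on the left and 9 on the right, and the dashed line marks the median of all genes at 0.01 and 0.22. Most points lie left of 0 on the TMM scale, which turns to a median of 0.19 when scaled by total count.

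Rps27l differs from Rps27 by few residues and is known as a target of p53. It had 920, 860, 804 and 730 normalized counts at P5 against 1123, 1183, 1113 and 1143 at P12. The lowest P12 value exceeded the highest P5 value, the only such gene of the 83, and the log2 fold change was 0.46 ± 0.07 (SE, edgeR adjusted p = 0.000288). Rps27 had 4611, 4235, 4301 and 4134 at P5 and 3463, 3789, 3740 and 3414 at P12, and it was lower at P12 (-0.26 ± 0.06 SE, edgeR adjusted p = 0.00449). As a share of Rps27, a ratio within a library that no scaling touches, Rps27l was at 17.7 to 20.3% in the P5 libraries and at 29.8 to 33.5% in the P12 libraries. The log2 ratio differed by 0.73 (exact two-sided permutation test over 70 splits, p = 0.0286, the smallest it can give, and 0.0857 after adjustment over 6 pairs). Leaving out each library in turn moved the difference between 0.69 and 0.76. Of the 50-base stretches of Rps27, 98.6% also occur in other genes, beside 22.4% for Rps27l. The part of reads that fit several places in this ratio was not tested. Between the ages the 8 ratios did not overlap, although the adjusted p misses 0.05, which no pair could reach unless at least 4 had the smallest p.

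Rpl22l1 is the paralog of Rpl22, a large subunit protein that is known to restrain its paralog's expression. It had 1277, 1295, 1184 and 1051 normalized counts at P5 and 743, 719, 694 and 749 at P12. Each P12 library was below each P5 library, and the log2 fold change was -0.73 ± 0.07 (SE, edgeR adjusted p = 1e-05), or -0.35 when scaled by total count (edgeR adjusted p = 0.0015). Rpl22 itself had 2998, 2721, 2760 and 2792 at P5 and 2951, 3255, 2954 and 2445 at P12, so that the ages overlapped and the change of 0.04 ± 0.08 (SE) was not called on the TMM scale. The paralog was counted at 37.6 to 47.6% of Rpl22 at P5 and at 22.1 to 30.6% at P12. The log2 ratio differed by -0.76 (exact two-sided permutation test, p = 0.0286, and 0.0857 after adjustment over 6 pairs) and ranged from -0.85 to -0.69 when each library was left out. Its sign was opposite to that of the Rps27l and Rps27 pair.

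**Figure D4:**
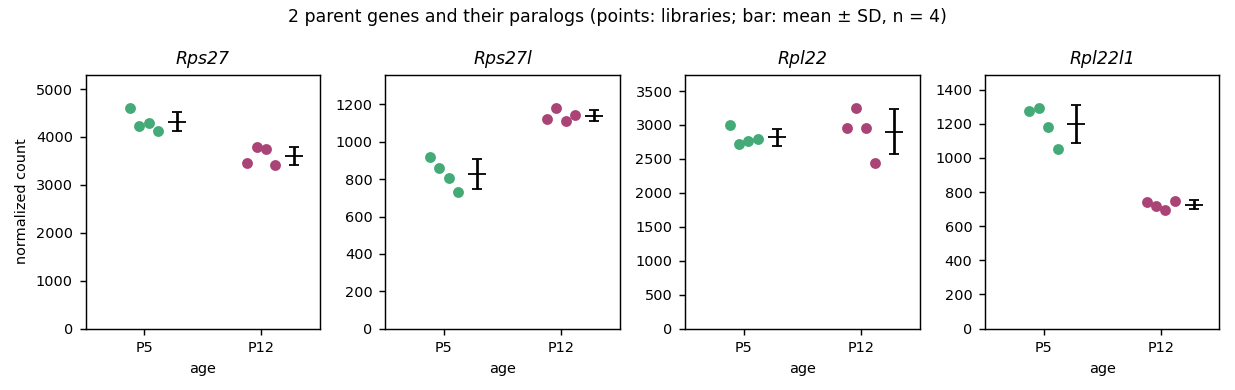
TMM-normalized counts of Rps27, Rps27l, Rpl22 and Rpl22l1 in each library, P5 green and P12 purple, with mean ± SD over 4 libraries beside the points. Rps27l runs from 730 to 920 at P5 and from 1113 to 1183 at P12, Rpl22l1 from 1051 to 1295 and from 694 to 749, and the 2 ages of Rpl22 overlap.

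The other paralogs were counted rarely. Rpl3l had 23.1, 25.7, 10.5 and 41.3 normalized counts at P5 and 10.3, 13.5, 11.1 and 6.0 at P12. The ages overlapped, since P5 library 4 was below 2 of the P12 libraries, and the log2 fold change of -1.30 ± 0.41 (SE, edgeR adjusted p = 0.0184) was -0.95 and no longer called without P5 library 5 (edgeR adjusted p = 0.075) and -0.78 without P5 library 5 and P12 library 4 (edgeR adjusted p = 0.123). Against Rpl3 the log2 ratio differed by -1.04 (exact permutation test, p = 0.0857, and 0.171 after adjustment), or by -0.74 to -1.39 with 1 library left out. For Rpl36al against Rpl36a the difference was -0.58 (exact permutation test, p = 0.114), for Rpl39l against Rpl39 -0.19 (p = 0.686 by exact permutation) and for Rps27rt against Rps27 0.17 (p = 0.40 by exact permutation). Leaving out 1 library moved these from -0.75 to -0.37 (without P12 library 3 and P5 library 5), from -0.38 to 0.11 (without P5 library 5 and P12 library 3, where the sign turned) and from 0.069 to 0.33 (without P5 libraries 5 and 1). These 3 were each counted at no more than 1.25% of their parent in any library. Rps10, the other gene called higher on the TMM scale, had 43.7, 47.0, 72.5 and 38.1 normalized counts at P5 and 85.0, 91.1, 75.1 and 59.2 at P12. The ages overlapped, and its call (0.64 ± 0.23 SE, edgeR adjusted p = 0.0367) was lost without P5 library 1, 3 or 5 or P12 library 1, 2 or 3, where the adjusted p was 0.0632 to 0.103.

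The genes were also grouped by role, and their counts are read beside the shares of all genes, 28.4% lower and 28.8% higher on the TMM scale and 14.2% and 54.0% by total count. The 4 genes of the stalk, which recruits the factors of elongation, were all lower on the TMM scale, by 0.28 (Rplp0), 0.30 (Rplp1), 0.20 (Rplp2) and 0.29 (Rpl12) on the log2 scale, whereas by total count none was called and their median was 0.09. Rplp1 had 15632, 15380, 15660 and 14743 normalized counts at P5 and 12336, 12696, 12735 and 12075 at P12, without overlap (edgeR adjusted p = 0.00218). The calls of Rplp0, Rplp2 and Rpl12 were lost when P5 library 1 or P12 library 3 was left out, with adjusted p between 0.0542 and 0.0719, and that of Rplp0 also without P5 library 4 (0.0709) and that of Rpl12 also without P5 library 5 (0.0527). Of the pair that carries a small ribosomal RNA into the large subunit and binds Mdm2, Rpl5 was lower (-0.26 ± 0.08 SE, edgeR adjusted p = 0.0154) and Rpl11 was not called (-0.08 ± 0.08 SE), while by total count it was Rpl11 that was called, as higher (0.30).

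Around the exit tunnel of the large subunit, through which the new chain leaves, Rpl4, Rpl17 and Rpl31 were lower on the TMM scale, at -0.25, -0.23 and -0.32, and Rpl39, Rpl23a, Rpl26 and Rpl35, at -0.17 to -0.09, were not called, whereas by total count 3 of the 7 were higher and none lower. The calls of Rpl4 and Rpl17 were lost without P5 library 1, P5 library 4 or P12 library 3 (edgeR adjusted p 0.0545 to 0.0758). Along the mRNA path of the small subunit Rpsa, Rps26 and Rps3 were lower on the TMM scale and Rps2, Rps15, Rps23 and Rps28 were not called, at -0.16 to -0.04, and by total count 2 of these 7 were higher. Rps27a, made as a fusion with ubiquitin, had a log2 fold change of -0.28 ± 0.07 (SE, edgeR adjusted p = 0.00523), which was 0.10 and not called by total count. Rps6, the target of S6 kinase and the median gene of the set on the TMM scale, had 8053, 7377, 7439 and 7093 normalized counts at P5 and 6733, 7387, 6516 and 5767 at P12. Its ages overlapped and it was not called (-0.18 ± 0.08 SE, edgeR adjusted p = 0.0807).

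Among 10 genes whose mutation causes Diamond-Blackfan anaemia in people or a mouse phenotype, Rps19, Rps20, Rps7 and Rpl35a were lower on the TMM scale, at -0.26, -0.38, -0.25 and -0.37, and Rps10 was higher, whereas by total count 5 were higher, near the 54.0% of all genes, and none was lower. Rps19, the gene most often mutated in that anaemia, had 7072, 6575, 7031 and 6693 normalized counts at P5 and 6088, 5821, 5828 and 5149 at P12, without overlap (edgeR adjusted p = 0.00772). Rpl24, Rpl27a, Rpl38 and Rps24 were among those not called. Rpl13a, known for translational silencing in macrophages, was at -0.26 ± 0.09 (SE, edgeR adjusted p = 0.0304), a call that was lost without any 1 of P5 libraries 4 and 5 and P12 libraries 1, 3 and 4 (0.0522 to 0.091).

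Fau and Rack1, ribosome components outside the symbol rule, were both lower on the TMM scale, at -0.24 ± 0.08 and -0.39 ± 0.09 with SE from edgeR, whereas by total count neither was called. Fau missed the threshold without P5 library 1 or 3 (edgeR adjusted p 0.0515 and 0.0519). Among 7 elongation factor genes, Eef1b2 and Eef1g, which reload the factor that delivers aminoacyl-tRNA, fell by 0.46 and 0.57 on the TMM log2 scale, and Eef1a2, the form of that factor typical of muscle and neurons, fell by 2.53. Eef1a2 had 127, 263, 194 and 171 normalized counts at P5 and 30.8, 12.7, 24.1 and 65.3 at P12, so that the ages were far apart. Eef1a1 and Eef2, the main factors, were not called, and Eif5a and Eef1d were higher at 0.30 and 0.20. By total count 4 of the 7 were higher, Eef1a1 (0.31) and Eef2 (0.30) among them, only Eef1a2 was lower, and Eef1b2 (-0.08) and Eef1g (-0.20) were not called. The call of Eef1d was lost without P5 library 3, P5 library 4 or P12 library 2 (edgeR adjusted p 0.0542 to 0.0628).

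Genes that build ribosomes were mostly on the other side of 0 on the same scale. Of 123 tested biogenesis genes 51 were higher (41.5%, beside 28.8% of all genes) and 15 lower (12.2%, beside 28.4%) at P12 on the TMM scale, with a median of 0.18 beside 0.01 for all genes. By total count 104 were higher (84.6%, beside 54.0% of all genes) and 3 lower (2.44%, beside 14.2%). Sbds, which frees the large subunit for its first use, rose by 0.79, Polr1d, a subunit of RNA polymerases I and III, by 0.73 and Utp20, of the small subunit processome, by 0.63. Noc3l and Taf1a, which act in nucleolar assembly and in polymerase I initiation, changed by -0.94 and -0.88, and Bccip by -0.84. Of 77 mitochondrial ribosomal protein genes 27 were higher (35.1%) and 4 lower on the TMM scale, with a median of 0.13, and by total count 70 were higher (90.9%, beside 54.0% of all genes) and none was lower. Mrpl41 rose the most, by 1.01, followed by Mrpl32 at 0.57 and Mrpl19 at 0.52. At the other end Mrps33, Mrpl49 and Mrpl24 were at -0.29, -0.28 and -0.22, and the call of Mrps33 was lost in 6 of the 8 fits that left out a library, all but those without P5 library 5 or P12 library 4 (edgeR adjusted p 0.0511 to 0.103).

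Of 35 initiation factors 9 were higher (25.7%, beside 28.8% of all genes) and 5 lower on the TMM scale with a median of 0.01, whereas by total count 31 were higher (88.6%, beside 54.0%) and none was lower. Eif3l, of the scaffold complex on the small subunit, rose by 0.74, Eif2b3 by 0.51 and Eif1ax by 0.44, and Eif4g3, Eif1b and Eif3f were at -0.43, -0.34 and -0.32. Another list held 19 regulators of ribosome supply and TOP mRNA translation. On the TMM scale 6 were higher (31.6%, beside 28.8% of all genes) and 8 lower (42.1%, beside 28.4%). By total count 11 were higher (57.9%, beside 54.0%) and 1 lower (5.26%, beside 14.2%). Myc, which drives transcription of ribosome genes, had 202, 135, 144 and 201 normalized counts at P5 and 566, 651, 441 and 302 at P12, without overlap and with a log2 fold change of 1.53 ± 0.23 (SE, edgeR adjusted p = 0.000156). Eif4ebp1 and Deptor, which hold back cap-dependent initiation and mTOR, rose by 1.21 and 1.22. Mycn, below the count set for naming and named after its values were seen, was at -1.25 ± 0.18 (SE, edgeR adjusted p = 0.000137). Mycl, Tsc2 and Sesn2 were at -0.49, -0.30 and -0.29, of which Mycl missed the threshold without P5 library 5 (edgeR adjusted p = 0.0708) or P12 library 3 (0.0661), and Sesn2 in 7 of the 8 fits that left out a library, all but that without P12 library 1 (0.0519 to 0.117). Larp1 was not called, at 0.06 ± 0.07 (SE). All 4 proliferation markers were higher at P12, with 0.0057 to 0.0074% of the counts at P5 and 0.0122 to 0.0231% at P12, lowest at each age in P5 library 5 and P12 library 4.

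**Figure D5:**
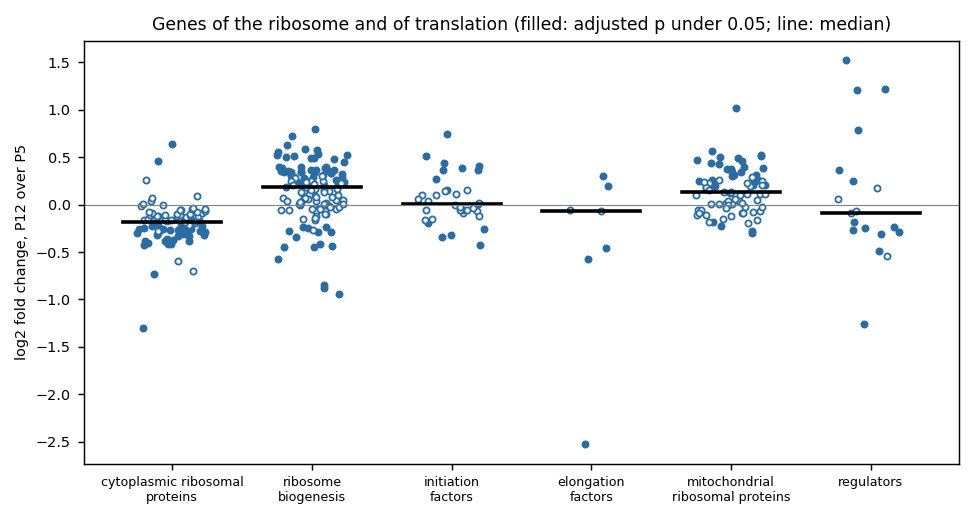
Each point is a tested gene of the named list and gives its log2 fold change, P12 over P5, on the TMM scale. Filled points passed the threshold of 0.05 and lines mark the medians, -0.18 for cytoplasmic ribosomal proteins (0.19 by total count), 0.18 for ribosome biogenesis and 0.13 for mitochondrial ribosomal proteins.

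What the 84 genes share on the genome bears on how their reads can be placed. They lie on 19 chromosomes, 14 of them on chromosome 7 and 4 on X, and 30 of the 83 tested genes (36.1%) contain a small nucleolar RNA gene, beside 1.59% of all protein-coding genes tested. Of those 30 hosts 17 were lower (28.4% of all genes) and none was higher at P12 on the TMM scale, whereas by total count none was lower and 11 were higher (54.0% of all genes). Of the other 53, 20 were lower and 2 higher on the TMM scale, and 1 was lower and 22 were higher by total count. Processed pseudogenes copy many of the transcripts, and 81 of the 84 genes share at least one 50-base stretch with another annotated gene, with a median of 60.6% of the stretches shared. Rpl3l and Rpl39l share none, Rps27l shares 22.4%, Rpl22l1 65.6% and Rps27 98.6%. The 383 annotated ribosomal protein pseudogenes were counted at 0.395 to 0.507% of the count of the 84 genes, so that few reads were assigned to them, and how the authors' counting treated reads that fit several places is not given in the sources used here. Values of genes with a large shared part are uncertain to that extent.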

How the data were processed

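RNA-seq libraries of 4 pools at P5 and 4 at P12 were grouped by the ages in the sample labels. The authors deposited whole-number read counts per gene, without normalization, with gene coordinates and lengths. The submitters' processing notes name CASAVA and mm39, whereas 53462 of the 54532 genes have the GRCm38 coordinates of GENCODE M21, which was used for overlaps, shared 50-base stretches and principal transcripts. The aligner, the counting program and its use of strand are not given in the sources used here.

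The main test was edgeR's quasi-likelihood test (edgeR 4.0.16, R 4.3.3) without covariates, after filterByExpr left 16440 genes and TMM scaled them. A gene was called at a Benjamini-Hochberg adjusted p under 0.05 over all of those genes. Normalized counts refer to the mean effective library size, 19037603. DESeq2 1.42.0, named in the paper's methods, and limma-voom (limma 3.58.1) were alternatives, beside the other scalings, filters and left-out libraries of the closing section. Paralog ratios, on log2 counts with a pseudocount of 1, were tested by exact two-sided permutation over all 70 splits. The fits were first run on simulated counts in which few genes were changed, up and down in equal numbers. Those counts held no shift of the most abundant genes between the ages, so that they could not test the scaling. P-values measure the spread between pools.

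The ribosomal protein genes and the other lists were chosen with earlier results of these data known, so that no list got a test. Genes named in the text are all paralogs and their parents, the 6 members with the largest rise and the 6 with the largest fall among those with a mean of at least 100, the 5 highest and 5 lowest per kilobase, members by role, all elongation factors, and the 3 largest rises and falls that passed the test in each other list. The plots used matplotlib 3.10.9, and the tables numpy 2.4.6 and pandas 2.3.3. Results of a few genes are not reported here, and their rows are left out of the plots that name genes.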

Additional observations from a re-analysis of the deposited data

Results flagged for a closer look

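Dixon's test was applied within each age to 176 groups of 4 libraries, most of them from the 86 named genes that were tested. One library stood apart from the other 3 in 8 of them, where chance gives about 1 in 20, or 8.8. Among the ribosomal protein genes these were Rps14 in P12 library 4, with 7645 normalized counts beside 8571 to 8584, and Rpl11 in P5 library 1, with 7119 beside 6478 to 6576. Rps14 was also lower at P12 without that library. Outside them, Eef1d had 1822 in P5 library 1 (1680 to 1702 in the others), Eif5a 5550 in P5 library 5 (5705 to 5733), Polr1d 1807 in P12 library 2 (1478 to 1527), Bccip 506 in P12 library 4 (573 to 583), Mrpl32 193 in P5 library 5 (241 to 248) and Tsc2 1814 in P5 library 5 (1495 to 1538).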

How the results depend on the processing

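The scaling of the library decided the direction of the whole set. By total count 33 ribosomal protein genes were higher and 1 lower (large subunit 21 and 1, small subunit 12 and 0), with a median of 0.19, and the lists gave 104 higher and 3 lower (biogenesis), 31 and 0 (initiation), 4 and 1 (elongation) and 70 and 0 (mitochondrial). Of all genes 54.0% were higher and 14.2% lower by total count. Relative to the summed ribosomal protein count the numbers were 7 and 2 (large subunit 4 and 2, none of the small subunit lower), with a median of 0.028, 80 and 4 for biogenesis, 17 and 0 for initiation and 46 and 0 for the mitochondrial list. Of all genes 38.8% were higher and 16.5% lower on that scale. The other scalings and tests, and a minimum of 10 counts in every library, gave 2 higher and 36 to 42 lower. Of all genes 4182 to 4763 were higher and 4162 to 4726 lower in those fits. The mean share of counts without the 20 most abundant genes was 4.31% at P5 and 3.80% at P12.

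At an adjusted p under 0.01 there were 1 higher and 21 lower (12 lower of the large subunit, 1 higher of the small), 32 higher for biogenesis, 3 lower for initiation, 1 higher for elongation and 17 and 1 for the mitochondrial list. The share of all genes called at that threshold is not given here. These counts therefore show only how many calls remain, not how the genes stand beside all genes. Without the filter on low counts 3 ribosomal protein genes were higher and 30 lower, beside 5123 and 4893 of all genes, and 3 initiation genes were lower. Fits with one library left out gave 1 to 3 higher (small subunit 1 to 3) and 25 to 40 lower, 15 to 23 lower of the large subunit, 3 to 5 lower for initiation, 1 to 2 higher for elongation and 2 to 5 lower for the mitochondrial list. Of all genes 4309 to 4938 were higher and 4364 to 5092 lower in those fits.

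Replicate numbers occur at both ages for 6 libraries, and the correlations of their deviations were 0.045, 0.005 and -0.036. Pairs with unlike numbers gave -0.058 to 0.062, so that no pairing by number was seen. Values near 0 cannot exclude a shared preparation, which was not tested. With the replicate number as a block 1 ribosomal protein gene was higher, of the small subunit, and 42 were lower, with 33 higher for biogenesis, 3 lower for initiation, 0 higher for elongation and 17 and 2 for the mitochondrial list. The same 6 libraries without the block gave 1 higher, again of the small subunit, 47 lower, 3 lower for initiation and 1 higher for elongation. Of all genes 3867 were higher and 3843 lower with the block, and 4076 and 4041 without it. The causes of these differences were not tested. No named gene was called in opposite directions by any of the fits once values were measured from the median of all genes. For the total-count and pool scales this was largely fixed in advance, since they shift all genes by nearly the same amount. Under 100 counts per library, as for Rpl3l, Rpl24, Rpl36al, Rpl39l and Rps27rt, depth limits what could be detected.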
